A study of Schizosaccharomyces pombe with 21 samples.

Results

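The small nuclear and small nucleolar RNA genes of the fission yeast Schizosaccharomyces pombe were followed through phosphate starvation with and without the translation inhibitor cycloheximide. Members were all rows of the count table whose systematic identifier is that of an snRNA or snoRNA gene, 60 of 6988 rows. The 44 members with at least 10 counts in at least 3 libraries are described over all groups, and these 44 were also the members that passed the filter on low counts and were tested. They comprise 5 spliceosomal snRNAs, 2 genes for the U3 snoRNA, 16 box H/ACA snoRNAs and 21 other snoRNAs, from 5, 2, 20 and 33 rows in all. The labels U3 and H/ACA come from the product names in the table, except that snR30 was placed with the H/ACA RNAs by hand. At the edge of the count rule, the third highest library count was 11 for snR41 and 17 for snu5, and 8 for each of the omitted snoR39a and snoR54b. A member near this edge entered through the groups where it was high, so its calls in those groups are descriptions. snu6 and snR88 reached 10 counts almost only in drug libraries, so their rises with the drug are descriptions too. The same holds for their falls from 2 h to 8 h with the drug and for the change in their drug effect. snR96 reached 10 counts in every starved library but in no 0 h library, so its rises against 0 h are also descriptions.

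All 21 libraries came from the strain AGP72 (genotype h-), in 7 groups of 3 that the labels call biological replicates. Cells in the 0 h group were in log phase in YES medium, and the starved cells were held for 2, 4 or 8 h in ePMGT(-PO4) medium, either without drug or with 100 µg/ml cycloheximide. The medium therefore changed together with the phosphate supply in each comparison with 0 h, and the drug groups differ from 0 h by the drug too. RNA was isolated with hot acid phenol, and polyA+ RNA was made into stranded, paired-end libraries.

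Spliceosomal snRNAs are the RNA cores of the particles that recognise and remove introns. Small nucleolar RNAs act in the nucleolus: most box C/D RNAs guide 2'-O-methylation of ribosomal RNA and most box H/ACA RNAs guide pseudouridylation, while a few (U3, U14 and snR30) are needed for cutting the ribosomal RNA precursor. Mature snRNAs and snoRNAs mostly lack a poly(A) tail, and their precursors and processing intermediates can carry a tail on the way to trimming or decay by the nuclear exosome. Counts from polyA+ libraries therefore report the forms that were captured, and mature RNA, precursor and tailed intermediate cannot be told apart here.

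The sequences below are those of the genes on which the results turn, read by identifier from the RefSeq annotation of assembly ASM294v3, 5′ to 3′. In U1 (snu1) the capitals mark the 5′ end that pairs with the 5′ splice site, in U4 (snu4) nothing is marked, and in U6 (snu6) the capitals are the exons on either side of an intron. In the next 5 genes the capitals mark TGATGA (box C) and CTGA (box D), and in snR33 and snR93 they mark the ACA near the 3′ end.
snu1: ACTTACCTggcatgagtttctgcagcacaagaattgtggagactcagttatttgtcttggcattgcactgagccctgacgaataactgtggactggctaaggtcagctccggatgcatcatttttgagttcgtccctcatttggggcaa
snu4: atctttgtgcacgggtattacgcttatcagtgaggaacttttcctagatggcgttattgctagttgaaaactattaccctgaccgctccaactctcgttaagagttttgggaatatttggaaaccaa
snu6: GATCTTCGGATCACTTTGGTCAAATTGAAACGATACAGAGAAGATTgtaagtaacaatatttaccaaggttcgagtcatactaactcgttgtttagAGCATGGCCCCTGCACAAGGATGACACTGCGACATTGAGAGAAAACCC
snoU14: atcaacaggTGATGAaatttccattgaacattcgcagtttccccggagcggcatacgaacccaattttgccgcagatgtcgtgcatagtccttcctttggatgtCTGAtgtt
snoR38: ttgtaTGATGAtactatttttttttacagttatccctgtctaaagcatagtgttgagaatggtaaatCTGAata
snR51b: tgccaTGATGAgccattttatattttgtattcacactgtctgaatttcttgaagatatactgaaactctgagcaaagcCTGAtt
sno52: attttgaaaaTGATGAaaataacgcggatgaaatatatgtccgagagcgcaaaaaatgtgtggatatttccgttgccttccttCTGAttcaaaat
snoZ15: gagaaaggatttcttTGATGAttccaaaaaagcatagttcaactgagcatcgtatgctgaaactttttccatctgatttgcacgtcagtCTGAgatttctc
snR33: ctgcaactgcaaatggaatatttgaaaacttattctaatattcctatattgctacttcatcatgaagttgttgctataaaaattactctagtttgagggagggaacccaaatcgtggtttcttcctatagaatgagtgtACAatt
snR93: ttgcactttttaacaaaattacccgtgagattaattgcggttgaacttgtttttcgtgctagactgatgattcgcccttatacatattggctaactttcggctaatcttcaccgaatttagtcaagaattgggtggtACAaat

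On the gene strand, TGATGA within the first 20 bases together with CTGA within the last 15 bases was found in 17 of the 33 other snoRNAs (51.5%), in 0 of the 20 box H/ACA rows and in 22 of 12606 reference genes (0.175%). An ACA within the last 9 bases was found in 16 of the 20 box H/ACA genes (80.0%), in 3 of the 33 other snoRNAs and in 12.1% of reference genes. Both searches read the gene strand alone, and a match is a description of the letters. In snoZ15 the TGATGA lay just beyond the 20-base window. The U3 genes share sequence in part: aligned over their whole annotated lengths, snu3 and snu32 were identical in 150 of 300 columns, but snu32 matched a second place in the genome at 91.4% identity over 257 aligned columns, of which 134 bases lay inside the annotated snu3 gene and 122 bases lay 5′ of it. How reads of the shared stretch were split between snu3 and snu32 is not known, and their counts are uncertain.

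Total counts ran from 22079413 to 33563867 a library. Shares of counts and sums over a class were taken over all 60 member rows. Together the members took on average 0.0392% of the counts at 0 h, 0.0337% at 2 h and at 4 h, and 0.0462% at 8 h. With the drug their share was 0.122% at 2 h, 0.0683% at 4 h and 0.0455% at 8 h. Counts on tRNA genes, another class without poly(A) tails, took 0.000288% at 0 h and 0.000401%, 0.000638% and 0.00106% at 2, 4 and 8 h without drug, and with it 0.00523%, 0.00339% and 0.00121%. Ribosomal RNA genes took 0.00493% at 0 h and 0.00187%, 0.00239% and 0.00340% at 2, 4 and 8 h without drug, and with it 0.00438%, 0.00391% and 0.00250%. With the drug against no drug at 2 h and at 4 h, members, tRNA genes and rRNA genes thus all took a larger share. Against 0 h without drug, the members' share was lower at 2 h and 4 h, as was that of rRNA genes, while that of tRNA genes was higher. The part of poly(A) capture in the results was not tested. In a bulk sample, fewer cells and less RNA per cell cannot be told apart. The first replicate at 8 h without drug stood apart: the 2 replicate pairs with the largest chi-square per gene (23.3 and 19.5, where the closest pair of any group gave 3.64) both contained it, so counts that involve this group are also given without it. Levels below are CPM (counts scaled to a common library total) on library sizes scaled by the trimmed mean of M values.

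At 0 h the level per length was highest for snR30, the H/ACA RNA needed for cutting the 18S precursor, at 368 ± 6.73 CPM per kb (SD, n = 3), followed by the cleavage RNA snoU14 at 293 ± 4.67, sno52 at 270.2 ± 17.1 and snoZ16 at 255 ± 18.8. The difference between snR30 and snoU14 exceeded the replicate spread, whereas the libraries of snoU14 overlapped those of sno52, and those of sno52 overlapped those of snoZ16. The spliceosomal snRNAs were at the other end, with 4.53 ± 0.787 CPM per kb for snu2, 2.83 ± 1.33 for snu4, 2.78 ± 0.830 for snu1, 2.30 ± 2.36 for snu6 and 2.11 ± 1.13 for snu5, and the last 4 overlapped in their spread. The lowest level per length belonged to snR96, at 1.55 ± 0.455 CPM per kb. These values are what polyA+ libraries recovered and are not the abundance of the mature RNAs. Together, snR30 and snoU14 held between 34.7% and 36.3% of all member counts at 0 h. That range was 48.0% to 53.8% at 8 h, and in the drug libraries of 2 h it was 51.9% to 57.2%.

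Summed over a class, box H/ACA snoRNAs stood at 275 ± 2.35 CPM at 0 h, 216 ± 4.29 at 2 h, 196 ± 3.50 at 4 h and 264 ± 12.4 at 8 h (SD, n = 3), against 732 ± 6.51, 457 ± 17.1 and 264 ± 5.97 with the drug at 2, 4 and 8 h. The other snoRNAs stood at 145 ± 4.98 CPM at 0 h, 125 ± 3.35 at 2 h, 113 ± 2.92 at 4 h and 147 ± 4.32 at 8 h, and at 491 ± 12.3 at 2 h with the drug, 223 ± 11.4 at 4 h with the drug and 143 ± 4.00 at 8 h with the drug. Both sums were highest at 2 h with the drug, and at 8 h with the drug that of the other snoRNAs lay within the spread of its 0 h value while that of the H/ACA RNAs lay below it. The U3 pair behaved otherwise, at 8.76 ± 0.400 CPM at 0 h and 9.38 ± 1.40 at 2 h with the drug but 23.4 ± 4.79 at 8 h without drug. The snRNA sum was 2.21 ± 0.455 CPM at 0 h, 5.56 ± 0.281 at 8 h, 6.22 ± 0.689 at 2 h with the drug and 2.40 ± 0.279 at 8 h with the drug. Among single members, 25 of 44 had their highest group mean at 2 h with the drug and 16 had their lowest at 8 h without drug, and the ratio of highest to lowest group mean ran from 1.83 for snR101 to 45.5 for snR33.

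**Figure D1:**
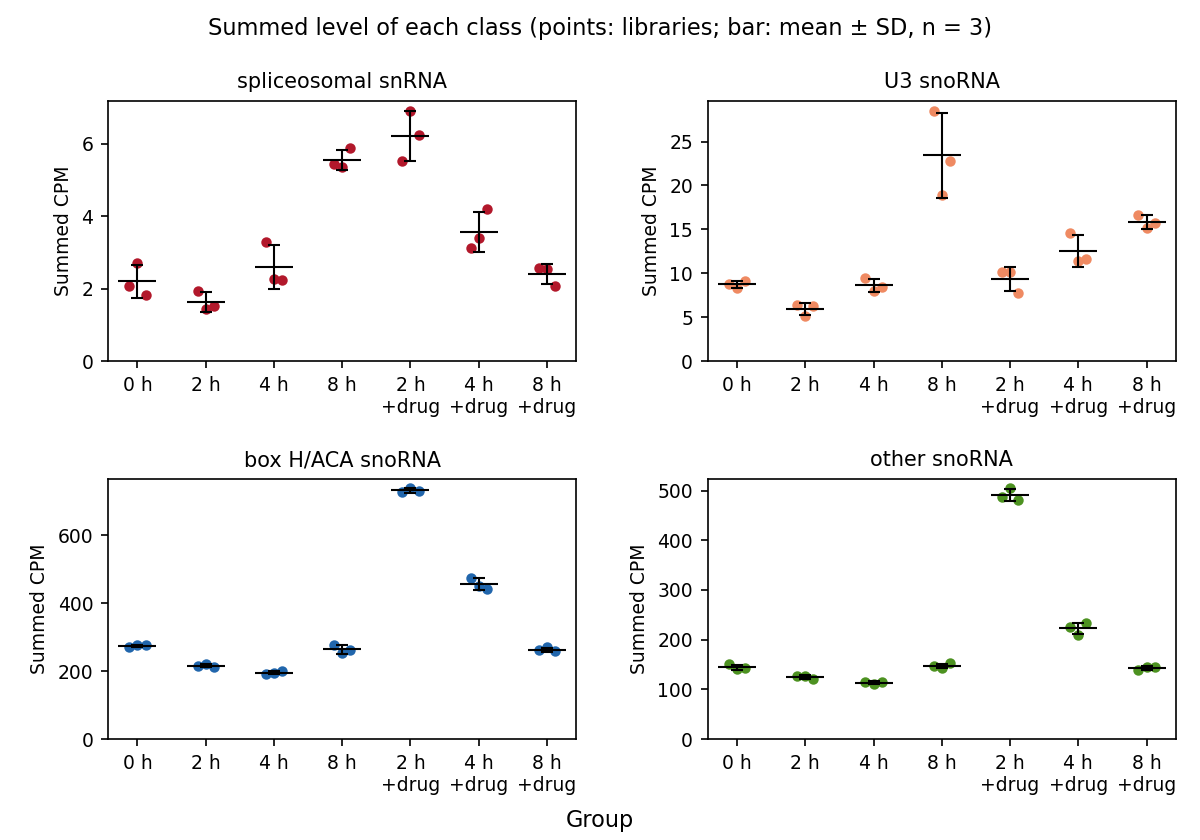
Summed CPM of the spliceosomal snRNA, U3, box H/ACA and other snoRNA genes in the 7 groups, with points for libraries and bars for mean ± SD (n = 3). The H/ACA and other snoRNA sums peak at 2 h with cycloheximide (732 and 491 CPM), whereas the U3 sum peaks at 8 h without it (23.4 CPM).

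The question put to starvation alone is how each RNA moved at 2, 4 and 8 h without drug against 0 h. A change was called when edgeR's quasi-likelihood test with Benjamini-Hochberg adjustment over the 6392 tested genes gave an adjusted p below 0.05 and the difference was at least 2-fold, and all adjusted p below come from that test. At 2 h, 2 members were higher and 2 lower (background of all tested genes 3.94% higher and 1.81% lower), and the median log2 fold change was -0.21 for members and -0.02 for all genes. At 4 h, 2 members were higher and 18 lower (background 14.2% and 13.9%), with medians of -0.76 and 0.00. At 8 h, 9 were higher and 17 lower (background 19.0% and 15.6%), with medians of -0.67 and -0.01, and without the first 8 h replicate the counts were 9 and 16. The lower calls took 40.9% of members at 4 h and 38.6% at 8 h, above the background, while the higher share at 8 h was near it. These 3 comparisons share the 0 h libraries.

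The 8 h changes ran in different directions by class. Of 5 snRNAs 3 were called higher and 0 lower (median log2 fold change 1.38), both U3 genes were higher (median 1.41), 1 of 16 box H/ACA RNAs was higher and 5 lower (median -0.67), and 3 of 21 other snoRNAs were higher and 12 lower (median -1.42). At 4 h the snRNAs and U3 genes gave no call, while 7 H/ACA RNAs and 11 other snoRNAs were lower and 1 of each was higher.

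U1, the RNA that pairs with the 5′ splice site, had few counts. Library counts of snu1 were 10, 11 and 8 at 0 h, 6, 5 and 6 at 2 h, 21, 15 and 18 at 4 h and 64, 58 and 53 at 8 h. The 8 h libraries were all above the 0 h libraries, with a log2 fold change of 2.34 ± 0.31 (SE; adjusted p = 2.76e-07). U4, which holds U6 inactive until the spliceosome is activated, stood at 0.512, 0.387 and 0.178 CPM at 0 h and 0.948, 0.974 and 1.19 CPM at 8 h, again without overlap, a log2 difference of 1.56 ± 0.31 (SE; adjusted p = 8.46e-05). U5, which aligns the exons, had 8, 2 and 9 counts at 0 h and 13, 26 and 20 at 8 h, again without overlap, and its log2 fold change was 1.38 ± 0.40 (SE; adjusted p = 0.00292). U2, which pairs with the branch point, went from 0.683, 0.967 and 0.891 CPM at 0 h to 1.61, 1.56 and 1.69 CPM at 8 h, a log2 difference of 0.93 ± 0.26 that did not reach 2-fold and was not called. The catalytic RNA U6, which is made by RNA polymerase III, had 3, 15 and 4 counts at 0 h and 5, 3 and 5 at 8 h, which overlapped, and was not called.

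Both U3 genes, whose RNA is needed for the first cuts in the ribosomal RNA precursor, were higher at 8 h. For snu3 the libraries held 3.54, 4.45 and 4.31 CPM at 0 h and 11.1, 8.67 and 12 CPM at 8 h, a log2 fold change of 1.36 ± 0.14 (SE; adjusted p = 4.20e-09). For snu32 they held 5.2, 3.92 and 4.85 CPM at 0 h and 17.4, 10.3 and 10.9 CPM at 8 h, a log2 fold change of 1.45 ± 0.18 (SE; adjusted p = 1.67e-07). In each gene the 8 h libraries lay above all 0 h libraries, and in snu32 the first 8 h replicate was well above the other two. Another RNA of the same cleavage machinery, snoU14, rose with time without drug: its libraries held 32.2, 33.0 and 33.2 CPM at 0 h, 64.4, 58.5 and 59.1 CPM at 4 h and 93.5, 80.9 and 87.1 CPM at 8 h. Its log2 fold change at 8 h was 1.41 ± 0.05 (SE; adjusted p = 9.75e-17). The third, snR30, held 118, 122 and 119.6 CPM at 0 h and 153, 122 and 125 CPM at 8 h, groups that lay close to each other, and was not called (log2 fold change 0.15 ± 0.06).

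Among box H/ACA RNAs, snR33, whose namesake guides pseudouridylation in budding yeast, fell furthest at 8 h. Its library counts were 115, 77 and 94 at 0 h, 58, 59 and 54 at 2 h, 16, 13 and 22 at 4 h and 1, 14 and 4 at 8 h, with every 8 h library below every earlier one except that the second 8 h replicate (14) reached the 4 h range. Its log2 fold change at 8 h was -4.13 ± 0.41 (SE; adjusted p = 3.36e-09), and it was -5.37 without that second replicate. The next largest falls at 8 h were those of snR94 at -2.32 ± 0.15, snR36 at -1.78 ± 0.21, snR92 at -1.76 ± 0.12 and snR42 at -1.52 ± 0.12. snR36, named after a guide for small-subunit rRNA in budding yeast, was already lower at 2 h, where its log2 difference from 0 h was -1.61 ± 0.20 (SE; adjusted p = 5.04e-07). At 4 h the log2 fold change was -1.32 ± 0.37 for snR90 and -1.02 ± 0.14 for snR98. The snR98 call rests on a difference just past 2-fold. It was not kept without 0 h replicate 3 (log2 fold change -0.95) or 4 h replicate 2 (-0.93). The H/ACA member called higher was snR96, with 7, 9 and 7 counts at 0 h and 27, 21 and 25 at 8 h. This rise is a description, since snR96 met the count rule through starved libraries alone. Its log2 fold changes against 0 h were 1.33 at 2 h, 1.91 at 4 h and 1.41 at 8 h, and the protein-coding gene tim17 overlaps it on the opposite strand.

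Large falls were also found among the other snoRNAs. snoZ15, encoded in an intron of the prefoldin gene pfd1, had 4.52, 3.77 and 5.81 CPM at 0 h, 3.12, 2.79 and 2.99 at 2 h, 0.133, 0.244 and 0.479 at 4 h and 0.175, 0.260 and 0.231 at 8 h. The 4 h and 8 h libraries lay far below the rest. They held 4, 7 and 17 counts at 4 h and 5, 8 and 6 at 8 h, so the size of the fall is imprecise. The log2 fold change at 8 h was -4.39 ± 0.30 (SE, adjusted p = 4.11e-12). At 4 h it was -3.99 ± 0.27, and -4.63 without 4 h replicate 3. snoU24b, snoR69b, snR70 and snR51b, whose namesakes guide rRNA methylation in budding yeast, had log2 fold changes at 8 h of -3.83 ± 0.23, -3.16 ± 0.16, -2.83 ± 0.43 and -2.69 ± 0.34, in the same order. For snR70 the value was -2.20 without 8 h replicate 2 and -3.54 without 8 h replicate 3. snoR02 (-2.44 ± 0.40) and snoZ16 (-2.25 ± 0.10) followed, the former with alg3 on the opposite strand.

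sno52, a member with high counts at 0 h, was lower at every starved time. Its libraries held 27.5, 25 and 24.5 CPM at 0 h, 8.54, 8.79 and 8.26 CPM at 2 h and 5.12, 8.45 and 8.65 CPM at 8 h, and every starved library lay below the 0 h range. The log2 fold changes were -1.59 ± 0.17 (SE; adjusted p = 4.21e-08) at 2 h, -1.93 at 4 h and -1.79 at 8 h, and the gene taf9 overlaps it on the opposite strand. snoR38, encoded in an intron and named after a methylation guide of budding yeast, went the other way: 2.99, 2.03 and 2.00 CPM at 0 h, 5.38, 5.42 and 4.76 at 2 h, 11.1, 11 and 10.3 at 4 h and 5.72, 11.3 and 12.4 at 8 h. Each starved library without drug was above all 0 h libraries, with log2 fold changes of 1.15 at 2 h, 2.21 at 4 h and 2.07 ± 0.24 (SE; adjusted p = 4.37e-08) at 8 h (2.34 without 8 h replicate 1). For snoR58 the call at 8 h (1.33 ± 0.48) came with overlapping groups and was not kept without 0 h replicate 3 (1.16) or 8 h replicate 2 (0.89). The call of snR40 (-1.42 ± 0.45) was not kept without 8 h replicate 1 (-0.99).

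**Figure D2:**
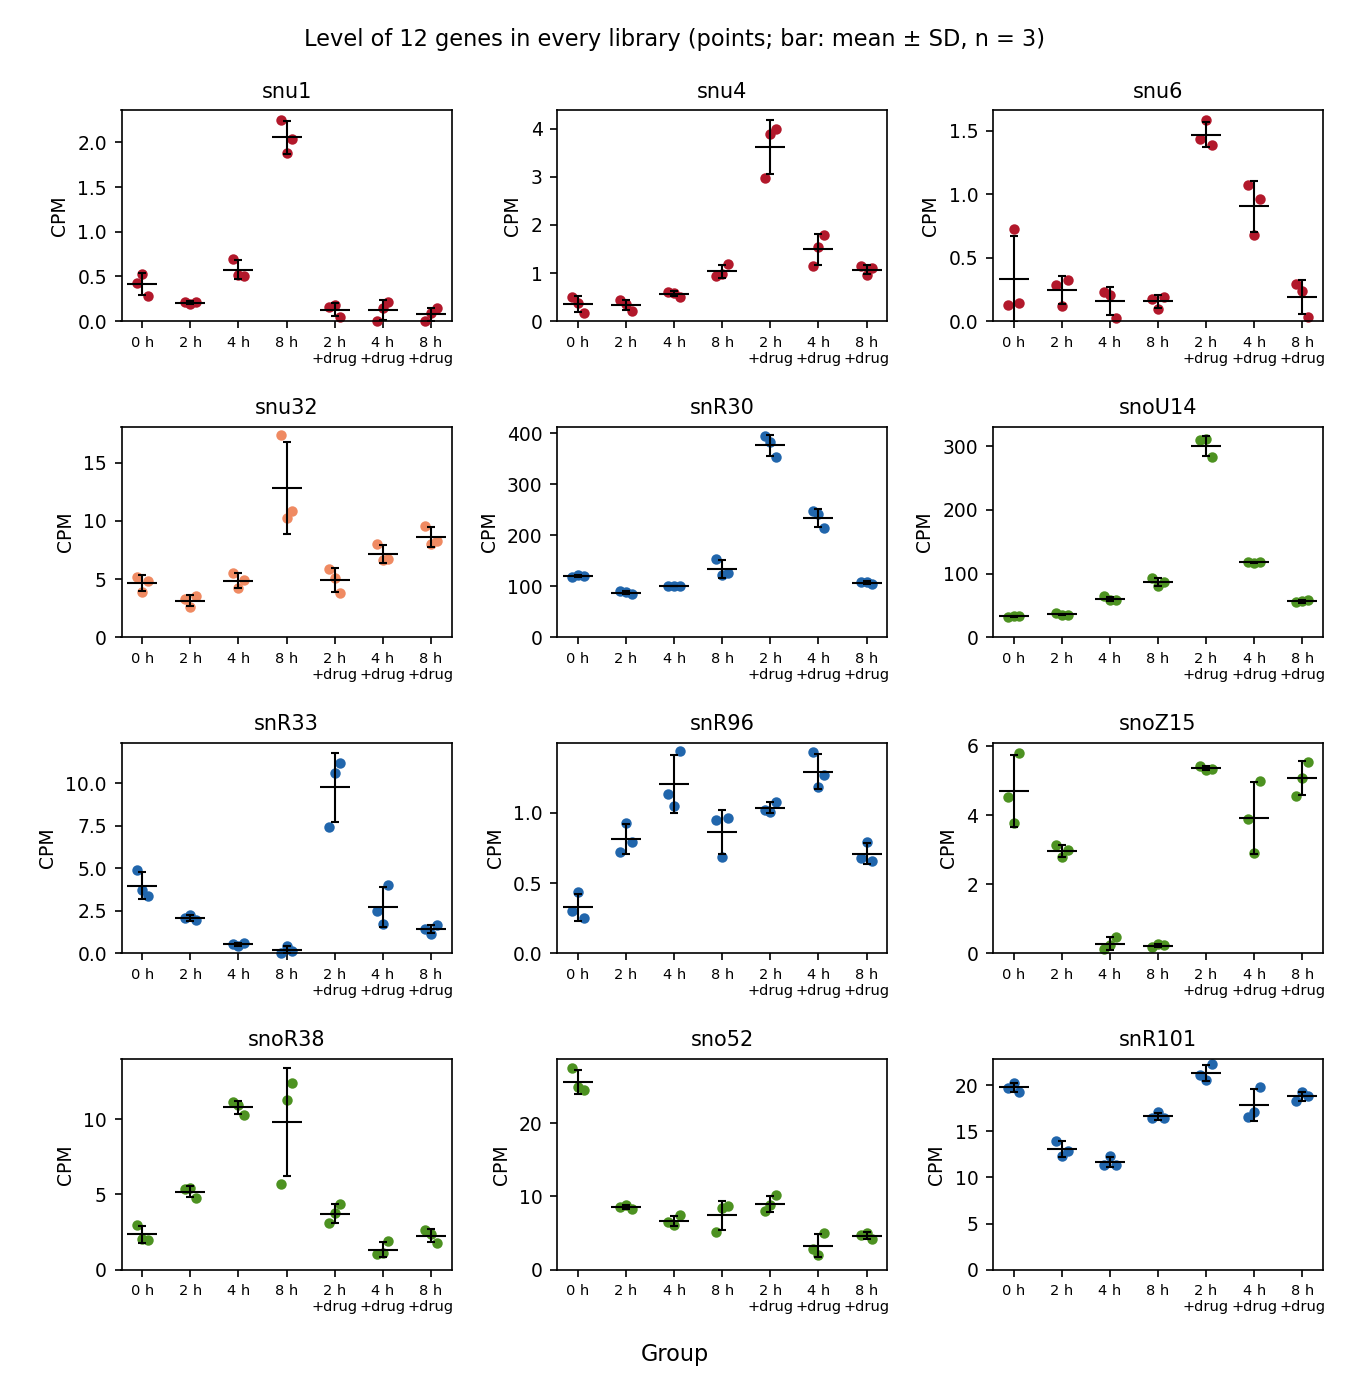
CPM of 12 members in each of the 21 libraries, by group. snoZ15 and snR33 fall with time without drug while snoR38 rises, snu1 is high in the 3 libraries at 8 h without drug, and snoU14 is highest at 2 h with cycloheximide (283 to 311 CPM).

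The drug against no drug at the same starvation time asks what blocking translation changed. At 2 h, 19 members were higher with the drug and 0 lower (background 15.8% higher and 13.5% lower), and the median log2 fold change was 0.86 for members and -0.04 for all genes. At 4 h, 23 were higher and 5 lower (background 19.9% and 20.9%), with medians of 1.05 and -0.04. At 8 h, 15 were higher and 4 lower (background 17.1% and 20.8%), with medians of 0.69 and -0.03, and without the first 8 h replicate 16 were higher and 4 lower. The share of members called higher was above that of all genes at each time, and the share called lower was below it. Beside the 0 lower calls of edgeR at 2 h, 4 members were lower at an unadjusted p below 0.05, and DESeq2 also called 0. These 3 comparisons share no library. Called higher at all 3 times were 6 members (snR33, snR42, snR90, snR93, snR51b and snoZ16), and 0 were lower at all 3. A further 13 were higher at 2 h and not called higher or lower at 8 h, 9 were higher at 8 h and not called at 2 h, and 6 were lower at some time (snu1, snu5, snR91, sno52, snoR02 and snoR38). Of the 44, 32 were called higher at some time. The share of all tested genes was not computed for these counts over several times, so they describe the members alone.

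At 2 h the higher calls came from 10 of 16 H/ACA RNAs (median log2 fold change 1.64), 7 of 21 other snoRNAs (median 0.80) and 2 of 5 snRNAs, with no U3 gene among them (median 0.66). snoU14 had 37.5, 35.2 and 34.9 CPM without and 309, 311 and 283 CPM with the drug, far apart, with a log2 fold change of 3.07 ± 0.05 (SE; adjusted p = 3.42e-22). snR30 had 89.98, 87.9 and 85.2 CPM without and 393, 383 and 353 CPM with it, again far apart, and a log2 fold change of 2.1 ± 0.07 (SE; adjusted p = 4.76e-18). For U4 the libraries held 0.431, 0.349 and 0.216 CPM without and 2.97, 3.88 and 4.00 CPM with the drug, a log2 fold change of 3.42 ± 0.25 (SE; adjusted p = 1.33e-11), the largest among the called members at 2 h. For U6 the counts were 8, 3 and 9 without the drug and 45, 44 and 31 with it, a log2 fold change of 2.56 ± 0.44 (SE). Large rises were also called for snR88 (3.08 ± 0.38), snR90 (2.56 ± 0.30), snR93 (2.51 ± 0.15) and snR51b (2.27 ± 0.24), and snR33 rose by 2.20 ± 0.24 on the log2 scale. Without drug snR88 had 6, 6 and 4 counts at 2 h, and snu4 had 12, 9 and 6. The rises of snu6 and snR88 are descriptions, since both met the count rule through drug libraries. The H/ACA RNA snR93 had 2.26, 2.56 and 2.60 CPM without and 14, 13.7 and 14.5 CPM with the drug.

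Among members high at 0 h, snR95 rose by 1.88 ± 0.06 at 2 h with the drug and sno12 by 1.12 ± 0.07. snR101, named here after its values were seen, was the member with no call in any of the 12 comparisons, with log2 fold changes from -0.76 to 0.70.

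At 4 h with the drug, 11 H/ACA RNAs (median log2 fold change 1.20), 10 other snoRNAs (median 0.95) and 2 snRNAs were higher, while 3 other snoRNAs and 2 snRNAs were lower. snoZ15 held 0.133, 0.244 and 0.479 CPM without and 3.88, 2.90 and 4.98 CPM with the drug, a log2 fold change of 3.69 ± 0.28 (SE; adjusted p = 3.24e-11), and 4.35 without 4 h replicate 3. snR70 (3.02 ± 0.38), snu6 (2.55 ± 0.53), snR98 (2.34 ± 0.13) and snR33 (2.31 ± 0.36) followed, then snR51b, snR42 and snR93 at 2.23, 2.15 and 2.09. snR88 rose by 1.87, and by 1.06 without 4 h drug replicate 1. The largest fall was that of snoR38, with 11.1, 11 and 10.3 CPM without and 1.03, 1.07 and 1.88 CPM with the drug, groups that did not overlap, and a log2 fold change of -3.04 ± 0.26 (SE; adjusted p = 2.27e-10). snu1 had 0, 4 and 5 counts in the 4 h drug libraries, against 21, 15 and 18 without drug, with a log2 fold change of -2.23 ± 0.50 (SE; adjusted p = 2.65e-04) (-2.86 without 4 h drug replicate 3). Of the other falls at 4 h, that of snu5 (-1.51 ± 0.51) was not kept without 4 h replicate 1 (-1.15, adjusted p = 0.0619), that of snoR02 (-1.69 ± 0.61) without 4 h drug replicate 2 (-1.29) and that of sno52 (-1.06 ± 0.22) without 4 h replicate 3, 4 h drug replicate 1 or 4 h drug replicate 2 (-0.97, -0.98 and -0.79). The rise of snR90 (1.10 ± 0.37) was not kept without 4 h replicate 1 (0.98) or 4 h drug replicate 3 (0.87). The same holds for the rise of snR94 (1.00 ± 0.16) without 4 h replicate 2 (0.83) or 4 h drug replicate 1 (0.93).

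At 8 h the higher calls were mostly among the other snoRNAs, 11 of 21 (median log2 fold change 1.30), with 4 of 16 H/ACA RNAs (median 0.58) and none of the snRNAs (median -0.98) or U3 genes (median -0.56). snoZ15 held 0.175, 0.260 and 0.231 CPM without and 4.57, 5.07 and 5.55 CPM with the drug, a log2 fold change of 4.48 ± 0.29 (SE; adjusted p = 1.61e-12). Its drug libraries lay in the range of the 0 h libraries (log2 fold change against 0 h 0.09 ± 0.17). snR51b (3.00 ± 0.32), snR70 (2.83 ± 0.42), snR33 (2.64 ± 0.49), snoR39b (2.51 ± 0.17), snoR56 (2.34 ± 0.20) and snoR02 (2.23 ± 0.40) were next. Without 8 h replicate 2, snR33 came to 3.88 and snR70 to 2.21, and without 8 h replicate 3 snR70 came to 3.54. The groups of snR41 overlapped, and its rise of 1.61 ± 0.66 was not kept without 8 h replicate 1 or 3 or 8 h drug replicate 1 or 3 (1.17 to 1.58, adjusted p = 0.0515 to 0.128) and was 2.77 without 8 h replicate 2. snR40 rose by 1.99 and snR42 by 1.89.

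U1 fell furthest with the drug at 8 h, with 64, 58 and 53 counts without and 0, 3 and 4 counts with the drug. The difference of -4.57 ± 0.40 (SE; adjusted p = 4.19e-10) on the log2 scale was -5.19 without 8 h drug replicate 3, and the drug libraries also lay below those at 0 h. Against 0 h the log2 fold change was -2.23 ± 0.59 (SE; adjusted p = 0.00147), and -2.86 without 8 h drug replicate 3. snoR38 held 5.72, 11.3 and 12.4 CPM without and 2.66, 2.34 and 1.79 CPM with the drug, without overlap, a log2 fold change of -2.12 ± 0.23 (SE; adjusted p = 1.88e-08). U5 had a log2 fold change of -1.40 ± 0.38 (SE; adjusted p = 0.00182), and snR91 one of -1.17 ± 0.17 (SE; adjusted p = 1.66e-06). U4 held 1.14, 0.967 and 1.10 CPM at 8 h with the drug, close to its level without drug (log2 fold change 0.04 ± 0.24). snoU14 was at 54.7, 56.6 and 58.8 CPM with the drug, below its 8 h level without drug but short of 2-fold (log2 fold change -0.62 ± 0.05).

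**Figure D3:**
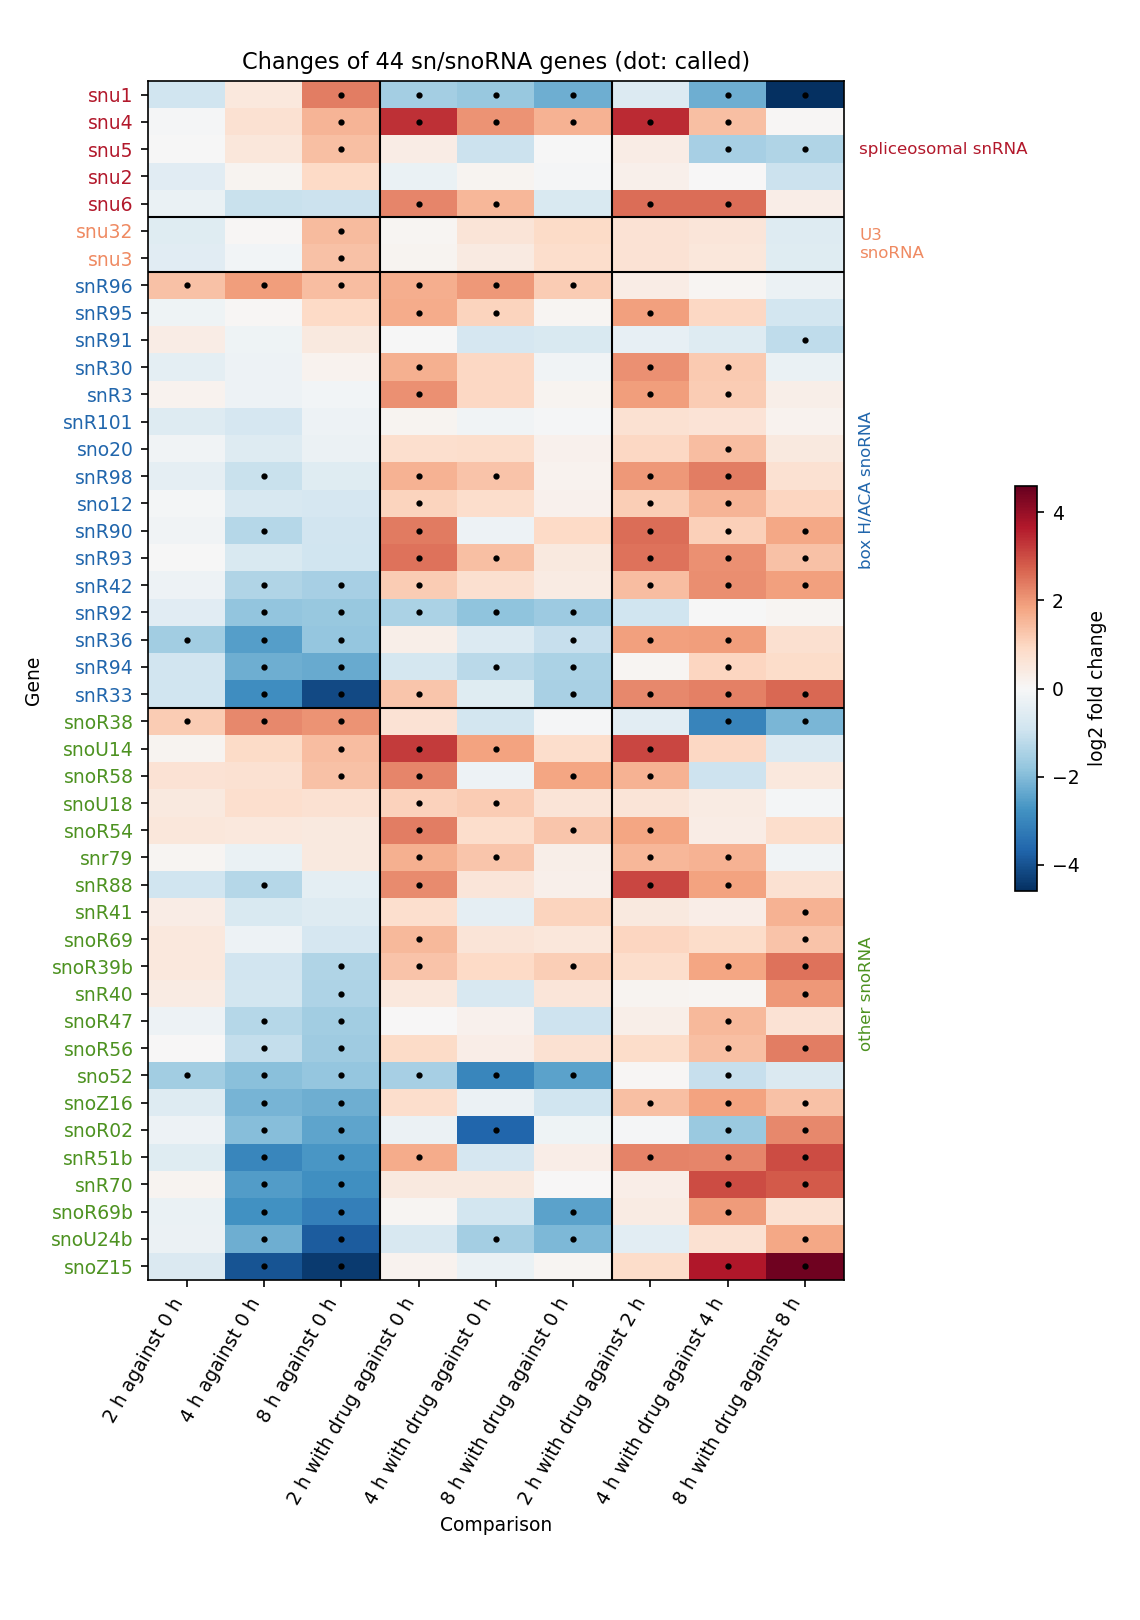
Log2 fold change of the 44 described members in 9 comparisons (starved against 0 h, starved with drug against 0 h, and drug against no drug at 2, 4 and 8 h), ordered by class and then by the change at 8 h, with a dot for each called change. Of the other snoRNAs, 11 and 12 of 21 are called lower at 4 and 8 h without drug, against 13.9% and 15.6% of all tested genes. In the drug comparison at 2 h, 19 of the 44 members are called higher and 0 lower. Of all tested genes, 15.8% are higher and 13.5% lower there.

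Set against 0 h, the drug groups gave 21 members higher and 3 lower at 2 h (background 17.0% and 14.5%), with a median log2 fold change of 0.84 for members and -0.05 for all genes. At 4 h, 9 were higher and 6 lower (background 14.8% and 14.8%; medians 0.25 and -0.07). At 8 h, 5 were higher and 8 lower (background 12.6% and 14.1%; medians 0.14 and -0.06), both shares being near the background. With library size alone as the scaling the split at 8 h was 9 higher and 7 lower, and that scaling moved the median of all genes by 0.23. snu4 (3.35), snoU14 (3.20), snR93 (2.5), snR90 (2.39), snoR54 (2.34) and snoR58 (2.25) rose most at 2 h, and snu6 rose by 2.25 (3.39 without 0 h replicate 2). At 4 h the largest falls were those of snoR02 (-3.65) and sno52 (-2.99), and snu1 was lower at -1.73 (-2.36 without 4 h drug replicate 3). The rise of snu6 at 4 h (1.53) came with overlapping groups. It was 2.68 without 0 h replicate 2 and was not kept without 0 h replicate 3 (1.12, adjusted p = 0.0501). At 8 h sno52 (-2.47), snoR69b (-2.45), snu1 (-2.23; -2.86 without 8 h drug replicate 3) and snoU24b (-2.05) were lowest, and snoR58 (1.83) and snu4 (1.60) highest. sno52 and snR96 were called in each of the 6 comparisons with 0 h, which share the 0 h libraries. snR96 had log2 fold changes of 1.68, 2.00 and 1.15 with the drug at 2, 4 and 8 h, the last not kept without 0 h replicate 3 (0.97). Against no drug its log2 fold changes were 0.35, 0.09 and -0.26, with no call.

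Within the starvation course, 8 h against 2 h without drug gave 8 members higher and 16 lower (background 13.6% and 9.79%), with a median log2 fold change of -0.25 for members and 0.00 for all genes, and without the first 8 h replicate 10 were higher and 16 lower. Higher in the full data were 4 of 5 snRNAs, both U3 genes, 1 H/ACA RNA and 1 other snoRNA. snu1 rose by 3.27 ± 0.34 (SE; adjusted p = 8.35e-09), snu32 by 2.02, snu3 by 1.90, snu4 by 1.63 and snu2 by 1.45 on the log2 scale. snoZ15 (-3.71), snoU24b (-3.57) and snR33 (-3.21; -4.45 without 8 h replicate 2) fell most, and snR70 was at -2.96 (-2.34 and -3.67 without 8 h replicates 2 and 3). With the drug, 8 h against 2 h gave 0 members higher and 18 lower (background 4.49% and 11.0%), with medians of -0.80 and 0.01. Beside the 0 higher calls of edgeR, 2 members were higher at an unadjusted p below 0.05, and DESeq2 also called 0. The falls were those of 2 snRNAs, 8 H/ACA RNAs and 8 other snoRNAs, led by snu6 (-2.94), snR33 (-2.77), snoR69b (-2.53) and snoU14 (-2.41). Those of snu6 and snR88 are descriptions, since both met the count rule through drug libraries.

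Whether the drug's effect itself differed between 8 h and 2 h was tested as a difference of differences over the 12 libraries concerned. The signed effect was higher at 8 h for 8 members and lower for 17 (background 12.6% and 19.4%), with a median log2 difference of -0.72 for members and 0.02 for all genes, and 8 and 17 again without the first 8 h replicate. All 5 snRNAs and both U3 genes were among the lower ones, with 6 H/ACA RNAs and 4 other snoRNAs. The higher ones were 7 other snoRNAs and 1 H/ACA RNA. The values of snu6 and snR88, both among the lower ones, are descriptions, since both met the count rule almost only through drug libraries. snoU14 moved from a drug effect of 3.07 at 2 h to -0.62 at 8 h, a difference of -3.69 ± 0.07 (SE; adjusted p = 1.61e-20). For U4 the difference was -3.38 ± 0.36 (SE; adjusted p = 1.40e-08), and for U1 it was -3.96 ± 0.87 (SE; adjusted p = 2.87e-04) (-4.58 without 8 h drug replicate 3). snR30 went from 2.1 to -0.32, a difference of -2.42 ± 0.09. At the other end, snoZ15 went from 0.85 to 4.48, a difference of 3.63 ± 0.38 (SE; adjusted p = 9.31e-09). For snR70 the difference was 2.53 ± 0.52, which became 1.91 without 8 h replicate 2 and 3.24 without 8 h replicate 3. The difference for snu2 (-1.20 ± 0.41) was not kept without 2 h drug replicate 2 (-0.91) or 8 h drug replicate 3 (-0.99), and that for snu32 (-1.24 ± 0.27) was not kept without 8 h replicate 1 (-0.96). For snu6 (-2.27 ± 0.93, adjusted p = 0.0299) it was not kept without any of 2 h replicate 2, 8 h replicate 1, 8 h replicate 3 and 8 h drug replicate 3 (adjusted p = 0.0619 to 0.0840). snR92 sat at the 2-fold bound (1.00 ± 0.18) and was not kept without 2 h replicate 1, 2 h replicate 2, 8 h replicate 3, 2 h drug replicate 2 or 8 h drug replicate 2 (0.86 to 0.99).

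**Figure D4:**
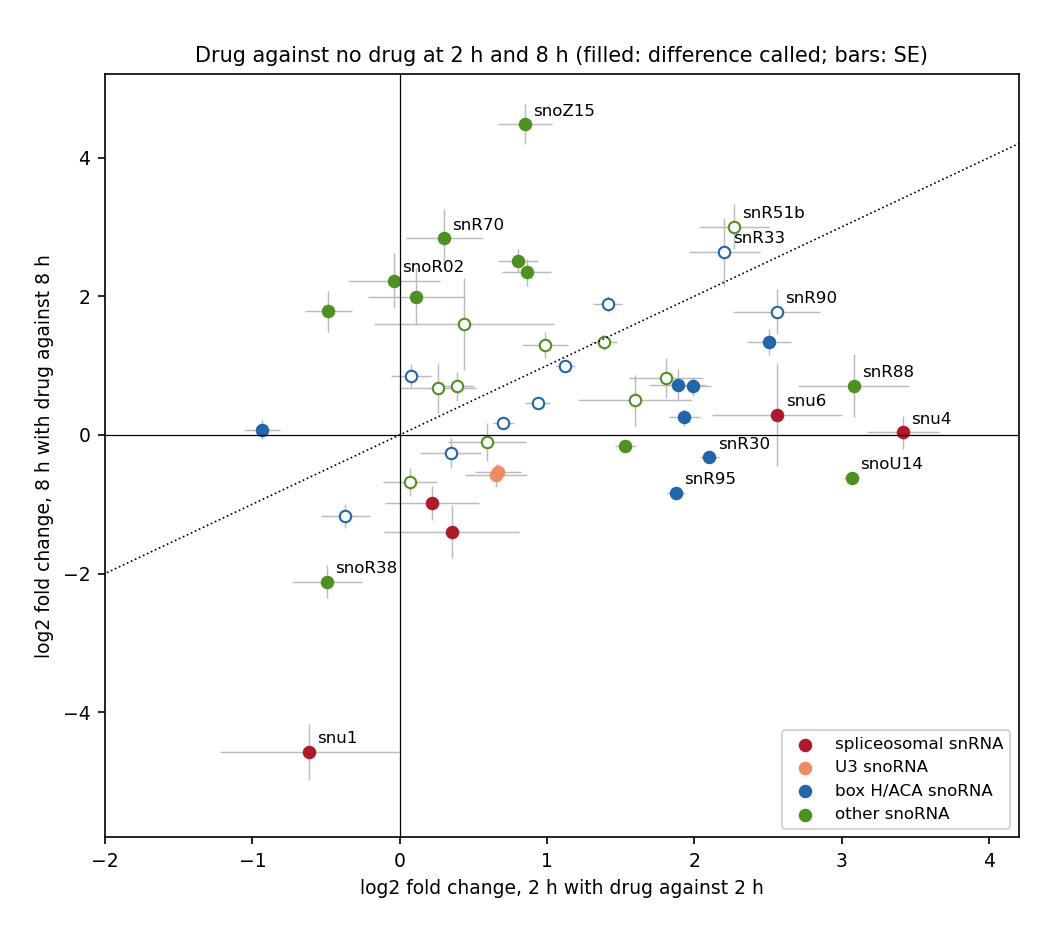
Log2 fold change of cycloheximide against no drug at 2 h (horizontal) and at 8 h (vertical) for the 44 members, with bars for the standard error, filled points where the difference between the times was called and a dotted line of equal effect. snoU14, snu4 and snR30 lie far to the right and near or below 0 on the vertical axis, while snoZ15 lies high above the line (4.48 at 8 h).

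Of the 44 described members, 8 lie in an intron of a protein-coding gene in the reference. Reads of an unspliced host transcript can fall on such a member, and the sources used here do not say how the counting treated them. At 8 h against 0 h, 6 of the 8 were called, and their hosts were called in the same direction for 3, in the opposite direction for 2 and not at all for 1. The background of all tested genes was 19.0% higher and 15.6% lower. The log2 fold change was -3.83 for snoU24b and -3.38 for its host cpc2, which encodes a scaffold protein of the ribosome and went from 6379 ± 147 to 615 ± 62.4 CPM. It was -1.40 for snoR39b and -3.19 for rpl701, and -1.61 for snoR47 and -1.43 for the kinetochore gene fta3. snoR38 rose by 2.07 while SPAC29A4.02c, the gamma subunit of a translation elongation factor, had a log2 fold change of -1.40. snoR58 rose by 1.33 while ade4, an enzyme of purine synthesis, had -1.32. snoZ15 changed by -4.39 while pfd1 changed by -0.51 without a call, from 78.8 ± 5.25 CPM at 0 h to 55.2 ± 0.715 CPM. With the drug against no drug at 8 h, 4 of the 8 were called, 2 with a host called in the same direction and 2 with a host not called (background 17.1% higher and 20.8% lower). In that comparison snoZ15 rose by 4.48 and pfd1 changed by 0.42, and snoR38 changed by -2.12 while SPAC29A4.02c changed by 0.50. The nearest upstream gene on the same strand was called in the same direction as the member for 6 of the 26 called at 8 h against 0 h, in the opposite direction for 5 and not at all for 15. Beside the background of 19.0% higher and 15.6% lower, these counts are not read as a link between neighbours. snR41, snR70 and snR51b lie in 1 noncoding transcript of the reference and share their source.

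**Figure D5:**
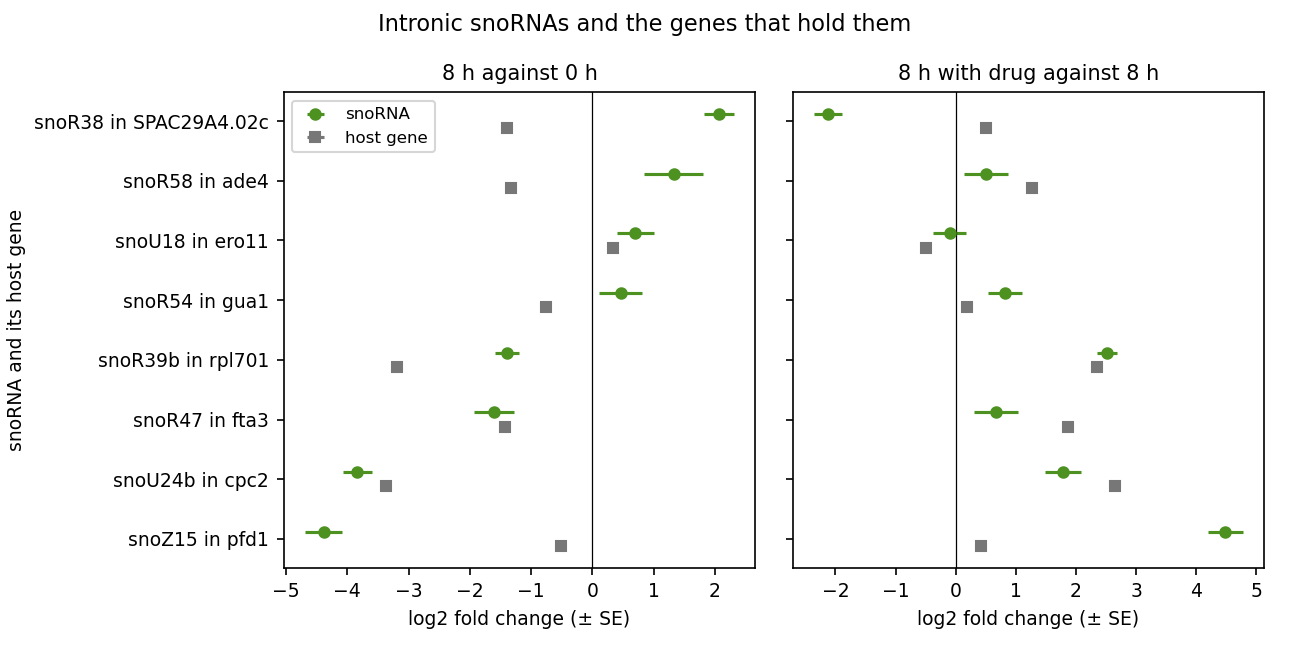
Log2 fold change (± standard error) of the 8 intronic snoRNAs and of their host genes, at 8 h against 0 h and at 8 h with cycloheximide against 8 h. snoZ15 moves by -4.39 and 4.48 where its host pfd1 moves by -0.51 and 0.42, and snoR38 moves opposite to its host at 8 h.

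Below the count rule stood 16 rows, of which 9 had 0 counts in all 21 libraries. By counting error alone, 0 in a single library allows up to 3 counts, and 0 in all 21 allows fewer a library. That bound does not cover reads that may have gone to an enclosing row. Of the 9, 5 (snoZ3, snoZ4, snoZ5, snoZ7 and snoZ8) lie inside a noncoding row named snoZ, the precursor that carries them, and snoZ30, snoR68 and snR97 each lie inside another noncoding row, while sno16 lies in none. By contrast, snR3, snR41, snR46, snR51b, snR70 and snR98, inside noncoding transcripts without a row in the count table, all had counts. How reads were assigned among nested rows is not stated in the sources used. The snoZ row itself held 4.94 ± 1.12 CPM at 0 h, 2.57 ± 0.128 at 8 h and 6.43 ± 0.377 at 8 h with the drug (SD, n = 3). At 2 h it held 4.77 ± 0.254 CPM without and 21.2 ± 0.897 CPM with the drug, a log2 fold change of 2.15. The other 7 rows below the rule had total counts over all libraries of 93 (snoR39a), 76 (snoR54b), 22 (snR46), 14 (snoU24), 8 (snR5), 6 (snr62) and 2 (snR10). Opposite-strand genes of the table overlap 8 described members (snR36, snR90, snR92, snR96, sno20, sno52, snoR02 and snr79). Since no source used here states whether strand was used in counting, reads of the partners cannot be told apart.

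The genes whose products assemble, modify and trim these RNAs were read from lists chosen with earlier results known. Of all tested genes, 15.6% were lower and 19.0% higher at 8 h than at 0 h. At 8 h without drug, 5 of 5 listed proteins of box C/D particles were lower than at 0 h (median log2 fold change -1.72). Among them were the methyltransferase fib1 at -1.81, the U3-specific protein rrp9 at -1.73 and nop56 at -1.72. Of 6 H/ACA genes 5 were lower (median -2.21), including gar1 at -2.60, nop10 at -2.26 and cbf5, the pseudouridine synthase, at -2.22. The exosome, TRAMP and MTREC list had 7 of 20 lower (median -0.74), with cid14, a poly(A) polymerase of TRAMP, at -1.56 and the exosome subunit rrp4 at -1.32. Single genes were lower in the lists for assembly and cap modification (bcd1 at -1.32, 1 of 4), the Sm ring (smb1 at -1.29, 1 of 7) and 3′ end formation (pac1 at -1.35, 1 of 12), and 2 of 14 spliceosomal proteins were lower. The counts of 1 of 7, 1 of 12 and 2 of 14 are below the share of all genes. Of the 2 tested genes for La and U6 maturation, the La protein gene sla1 was lower, at -2.49. The 8 Lsm genes and 4 other small stable RNAs had no call.

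With the drug against no drug at 8 h, 4 of 5 C/D genes (median 1.10), 5 of 6 H/ACA genes (median 1.79) and 5 of 20 exosome genes were higher and 0 lower in each, where 17.1% of all tested genes were higher and 20.8% lower. In the same comparison 4 of 14 spliceosomal protein genes and 4 of 12 3′ end genes were higher. At 4 h these counts were 5 of 5, 5 of 6 and 7 of 20 for the first 3 lists, against 19.9% of all genes. At 2 h, the time with the highest snoRNA sums, the C/D list had 1 higher and the H/ACA list 0, and of the exosome list 1 was higher and 1 lower, against 15.8% higher and 13.5% lower among all genes. Among the 4 other small stable RNAs at 2 h, srp7 (signal recognition particle RNA) was higher by 2.28, mrp1 (the RNA of RNase MRP) by 1.92 and rrk1 (the RNA of RNase P) by 1.64, and the telomerase RNA ter1 was lower, with a log2 fold change of -2.42. At 8 h with the drug against no drug srp7 alone of these 4 was called, with a log2 fold change of -1.42.

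The authors' deposited tables of the 6 comparisons with 0 h were read under the same limits on adjusted p and fold. The authors' deposited table for 8 h gave 9 members higher and 17 lower, and their tables for 2 h and 4 h gave 2 and 2, and 2 and 17. For the drug groups the authors' deposited tables gave 21 and 3 at 2 h, 11 and 6 at 4 h, and 5 and 8 at 8 h.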

How the data were processed

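The deposited matrix holds counts per gene in 21 polyA+ libraries, and the authors' 6 deposited tables hold a log2 fold change, p-value and adjusted p-value for each starved group against 0 h. The submitters' processing notes name HISAT2 2.1.0, SAMtools, HTSeq 0.10.0, DESeq2, DESeq and build ASM294v2. The settings for strand and for overlapping genes were not given in the sources used here. Of 6988 rows, 596 were removed by edgeR's filter on low counts. edgeR 4.0.16 (R 4.3.3) fitted all 21 libraries in 1 quasi-likelihood model with trimmed-mean scaling, without a replicate block, and 12 comparisons were tested. Benjamini-Hochberg adjustment ran over the 6392 genes tested. Alternatives were other scalings, other filters, DESeq2 1.42.0, the compared groups alone, a replicate block and leaving out each library. Sequences came by identifier from RefSeq ASM294v3, compared with Biopython 1.88 and BLAST+ 2.17.0.

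Named genes were every snRNA, the 5 snoRNAs highest at 0 h, up to 8 called snoRNAs in each direction of a comparison by size, and up to 3 called genes of a partner list in each direction. The members and lists were chosen with earlier results of these data known. Of the partner symbols, usb1, bmc1, thc1 and ars2 had no row under these names. P-values measure the spread between libraries that the labels call biological replicates, at depths of 22079413 to 33563867 counts. Intervals for zero counts cover counting error only. The fits were tested on simulated data.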

Additional observations from a re-analysis of the deposited data

Results flagged for a closer look

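For 25 members the drug's effect differed between 8 h and 2 h of starvation by the test of that difference (edgeR's quasi-likelihood test on the difference of differences, adjusted p below 0.05 and at least 2-fold). Positive values mean a higher log2 fold change of drug against no drug at 8 h. Of the 25, 8 were higher and 17 lower, where 12.6% of all tested genes were higher and 19.4% lower. The calls of snu2, snu6, snu32 and snR92 were each lost when certain single libraries were left out. The values of snu6 and snR88 are descriptions, since both met the count rule almost only through drug libraries. Among the snRNAs the log2 difference was -3.96 for snu1, -1.20 for snu2, -3.38 for snu4, -1.75 for snu5 and -2.27 for snu6. For U3 it was -1.21 for snu3 and -1.24 for snu32, genes that share part of their sequence. Among box H/ACA RNAs it was -2.42 for snR30, -2.71 for snR95, -1.68 for snR3, -1.29 for snR98, -1.17 for snR36 and -1.16 for snR93, while snR92 gave 1.00. Among the remaining snoRNAs it was -3.69 for snoU14, -2.37 for snR88, -1.69 for snr79 and -1.62 for snoR38. It was positive for snoZ15 at 3.63, snR70 at 2.53 (1.91 without 8 h replicate 2 and 3.24 without 8 h replicate 3), snoU24b at 2.27, snoR02 at 2.26, snR40 at 1.88, snoR39b at 1.71 and snoR56 at 1.48.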

How the results depend on the processing

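Of 235 called values of members, 211 were called under every alternative that tested them, 24 were not under at least 1, and 0 reversed. By direction, the 5 higher and 8 lower calls at 8 h with the drug against 0 h became 9 and 7 with library size alone. The counts of called members, higher and lower together, moved past 1.5 times under 1 setting, a filter asking for a mean of 100 counts. This filter left 24 of the 44 members to test. Under it the counts at 2, 4 and 8 h against 0 h were 2, 11 and 12 in place of 4, 20 and 26, and with the drug against 0 h they were 14, 8 and 4 in place of 24, 15 and 13. With the drug against no drug they were 15 at 4 h and 9 at 8 h in place of 28 and 19, for 8 h against 2 h 12 in place of 24 and, with the drug, 11 in place of 18, and for the drug effect at 8 h against 2 h 11 in place of 25. Leaving out each library in turn gave 4 to 5, 18 to 22 and 25 to 28 calls at 2, 4 and 8 h against 0 h, 23 to 24, 15 to 18 and 12 to 14 with the drug against 0 h, 19 to 20, 26 to 28 and 19 to 21 with the drug against no drug, 24 to 26 and 17 to 21 for 8 h against 2 h without and with the drug, and 23 to 29 for the drug effect at 8 h against 2 h. Library size alone as the scaling moved the median of all genes by 0.20 to 0.23 on the log2 scale for 4 h, 8 h and 8 h with the drug against 0 h, and the members' median log2 fold change kept its sign in all 12 comparisons under that scaling and under DESeq2's size factors. The labels' replicate numbers were taken as names: deviations of same-numbered libraries correlated from -0.289 to 0.371 over 63 pairs, with 11 above 0.1, and 15 of 21 libraries correlated best with their own number. With a replicate block all 235 calls were kept and the drug effect at 8 h against 2 h gave 26 calls. At these depths several members had 20 counts or fewer in many libraries, among them snu1, snu5, snu6, snR41, snR88 and snoU18. snR96 had 7, 9 and 7 counts at 0 h. snoZ15 had 4, 7 and 17 counts at 4 h and 5, 8 and 6 at 8 h, and snu4 had 12, 9 and 6 at 2 h. The fold changes of these members are imprecise.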
